A study of Mus musculus with 2 samples.

Results

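The cytochrome P450 (CYP) genes of families 1 to 4 were taken from the gene list of a spatial transcriptomics (ST) experiment by their symbols: Cyp, a digit from 1 to 4, a letter and a number. The pattern matched 55 of the 19465 genes listed. Cyp4a12b, Cyp4a30b and Cyp2ab1 carry an additional letter and fell outside it. ST was carried out with the 10x Visium assay on formalin-fixed, paraffin-embedded mouse liver, with 1 section of an AEG-1ΔMAC liver and 1 section of an AEG-1fl/fl liver. Both mice carried floxed AEG-1 (gene symbol Mtdh), and in AEG-1ΔMAC mice Cre expressed from the Lyz2 locus removes it from myeloid cells such as macrophages, while hepatocytes keep it. The labels give both mice as 27 weeks old and on HF/HSD (a high fat and high sugar diet) for 20 weeks from an age of 7 weeks. The study instead describes the ST mice as fed a control diet (CD), in its abstract, results, figure legends and methods. The diet could not be settled from these sources. With 1 library per genotype, the spread between mice is unknown, and no difference below could be compared with it.

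CYP enzymes are heme proteins of the endoplasmic reticulum that insert an oxygen atom into their substrates, with electrons passed on from NADPH by the reductase Por and by cytochrome b5. Families 1 to 3 are known chiefly for the oxidation of drugs, toxins and steroids, and many of their genes are switched on by the ligand-activated receptors Ahr, Nr1i3 (CAR) and Nr1i2 (PXR). Family 4 enzymes oxidise the omega end of fatty acids and eicosanoids, and its Cyp4a genes are classical targets of Ppara. Hepatocytes are the main site of expression, and along the liver lobule many CYP genes are higher around the central vein (pericentral, zone 3) than around the portal tract (periportal, zone 1).

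After the filter on spots, 2140 AEG-1ΔMAC spots with 45453286 unique molecular identifiers (UMIs) and 2540 AEG-1fl/fl spots with 50322850 UMIs remained. The median spot held 20929.5 UMIs in AEG-1ΔMAC against 18285 in AEG-1fl/fl. The libraries shared 1782 barcodes, which name positions on the capture grid. Levels are given as CPM, the UMIs of a gene divided by all UMIs of the library and multiplied by 1000000, with exact Poisson 95% intervals, and ratios as log2 of AEG-1ΔMAC over AEG-1fl/fl CPM, with exact binomial 95% intervals. Both cover counting error only. Mtdh had 66.3 CPM in AEG-1ΔMAC against 60.2 CPM in AEG-1fl/fl, which does not test its deletion in myeloid cells, since a spot sums all cells over it. All 7 hepatocyte markers were present, 3 of them higher in AEG-1ΔMAC and 4 lower, with a median log2 ratio of -0.13 and a range from -0.69 for albumin (Alb) to 0.46 for Hnf4a. The log2 ratio of the median gene was 0.15 over the 6933 genes that averaged 10 CPM or more, so ratios are also read against that value. Because a spot is a mixture, fewer cells of a type and less RNA per cell cannot be told apart.

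Of the 55 CYP genes, 31 averaged 10 CPM or more over the 2 libraries and were compared. A further 10 had UMIs but lay below this minimum, and 14 had no UMI in either library, which allows a level of up to 0.066 CPM in AEG-1ΔMAC or 0.0596 CPM in AEG-1fl/fl (3 UMIs). Beside Cyp1a1, Cyp1b1 and Cyp3a44, which are described below, the genes under the minimum had at most 46 UMIs in AEG-1ΔMAC (Cyp2d12) and 79 in AEG-1fl/fl (Cyp4f16). Genes without UMIs made up 25.5% of the CYP genes, against 20.6% of all genes listed. They included all 3 listed Cyp2b genes (Cyp2b13, Cyp2b19 and Cyp2b23) and 4 of 7 Cyp2j genes. Cyp2b9 and Cyp2b10 were not in the gene list, so the level of the Cyp2b subfamily as a whole is unknown. The lowest gene inside the minimum was Cyp2a4, with a mean of 16.9 CPM, and the highest outside it was Cyp3a44, with 4.79 CPM. Together the 55 genes took 2.73% of all UMIs in AEG-1ΔMAC against 1.76% in AEG-1fl/fl, or 1242893 and 883885 UMIs. Cyp3a11 (362549 and 266105 UMIs) and Cyp2e1 (330157 and 142959 UMIs) had the most, so the share mainly follows a few abundant genes. In the GENCODE M21 annotation of GRCm38 all 55 are protein-coding and lie at 17 loci when neighbours within 1000000 bases are joined. The larger clusters are those of Cyp2c on chromosome 19 from 39007019 to 40187333, Cyp2j and Cyp4a on chromosome 4, Cyp3a on chromosome 5, Cyp2a, Cyp2b and Cyp2f on chromosome 7, Cyp2d on chromosome 15 and Cyp4f on chromosome 17. For 12 of the genes the closest CYP coding sequence was at least 95% identical, so their probes may also count a neighbour: Cyp2a4 was 98.4% identical to Cyp2a5, Cyp2c54 95.2% to Cyp2c50, Cyp2c68 98.1% and Cyp2c69 97.9% to Cyp2c40, Cyp3a11 95.2% to Cyp3a41a, Cyp3a59 97.5% to Cyp3a25, and Cyp4a10 97.2% to Cyp4a32. The values of these genes are uncertain in that respect.

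The sequences just before the start of transcription are shown for 6 genes that carry the main patterns below: the pericentral Cyp1a2, Cyp2e1, Cyp2c29 and Cyp2a4, which were higher in AEG-1ΔMAC, Cyp2c55, which is pericentral and was lower, and Cyp2f2, which is periportal. Each is the 120 bases before the RefSeq start (GRCm38.p6), written 5′ to 3′ on the strand of the gene. Capitals mark the TATA box letters TATAAA and the core of an HNF6 (Onecut1) site, ATCAAT, each on either strand.
Cyp1a2 (chr9:57683656-57683775, minus strand): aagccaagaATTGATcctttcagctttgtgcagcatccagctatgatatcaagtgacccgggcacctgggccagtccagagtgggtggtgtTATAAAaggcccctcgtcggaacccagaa
Cyp2e1 (chr7:140763699-140763818, plus strand): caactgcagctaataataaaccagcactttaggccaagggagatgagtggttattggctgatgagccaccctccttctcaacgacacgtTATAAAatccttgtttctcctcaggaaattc
Cyp2c29 (chr19:39286965-39287084, plus strand): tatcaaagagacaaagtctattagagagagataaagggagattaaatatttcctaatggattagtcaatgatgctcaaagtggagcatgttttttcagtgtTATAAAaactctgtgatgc
Cyp2a4 (chr7:26307072-26307191, plus strand): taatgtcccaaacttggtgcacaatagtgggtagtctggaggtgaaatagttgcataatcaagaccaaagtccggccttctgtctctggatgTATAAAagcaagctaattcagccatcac
Cyp2c55 (chr19:39006899-39007018, plus strand): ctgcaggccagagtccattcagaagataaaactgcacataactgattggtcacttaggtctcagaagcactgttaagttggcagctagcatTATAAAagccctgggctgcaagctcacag
Cyp2f2 (chr7:27119835-27119954, plus strand): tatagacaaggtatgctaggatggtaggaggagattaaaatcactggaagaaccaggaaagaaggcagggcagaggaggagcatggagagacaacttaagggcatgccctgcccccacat

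The TATA box letters began 29 bases before the start in Cyp1a2 and Cyp2c55, 31 in Cyp2e1, 28 in Cyp2a4 and 19 in Cyp2c29, and were not in the window of Cyp2f2. RefSeq promoters, from 250 bases before the start to 50 after it, were found for 44 of the 55 genes (48 promoters). The TATA box was in 16 of these 48 and in 13.6% of all 32851 mouse promoters of the table. The HNF6 core was in 8 of 48 and in 7.54% of all. It was found in Cyp1a2, Cyp2c68, Cyp2c69, Cyp4f14 and Cyp4f15 among the genes compared. The core letters of an Ahr site, GCGTG, were in 13 of 48 against 32.4% of all, those of a TCF site, CAAAG, in 38 of 48 against 53.9%, the E-box CACGTG in 2 of 48 against 7.15%, and the HNF1 letters GTTAAT in 6 of 48 against 7.10%. The D-box TTATGTAA and a direct repeat of AGGTCA with 1 base between were in 0 of 48, against 0.938% and 0.04% of all. A match is a string of letters and not a measured site.

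In total 21 of the 31 CYP genes had a log2 ratio above 0 and 10 below 0, and 18 lay above and 13 below the median of all genes. At least 2-fold higher in AEG-1ΔMAC were 4 of 31 CYP genes, against 1.27% of all 6933 genes compared: Cyp2c54, Cyp2a4, Cyp2e1 and Cyp1a2. Of these, Cyp2a4 had 7.99 CPM in AEG-1fl/fl and met the minimum of 10 CPM only through its AEG-1ΔMAC level of 25.8 CPM. Cyp1a2 fell short of 2-fold under TMM factors, median-of-ratios factors and a total without the 50 most abundant genes, at 0.93, 0.92 and 0.91. At least 2-fold lower was 1 of 31, Cyp2c55, against 0.519% of all genes. The median log2 ratio of the 31 was 0.19, close to the 0.15 of all genes. Under the 3 other scalings Cyp2j5, Cyp2j9 and Cyp2r1 turned from above to below 0. The spread of the CYP genes was wide: 10 CYP genes lay above the 95th percentile of all genes (0.54) and 5 below the 5th percentile (-0.29).

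**Figure D1:**
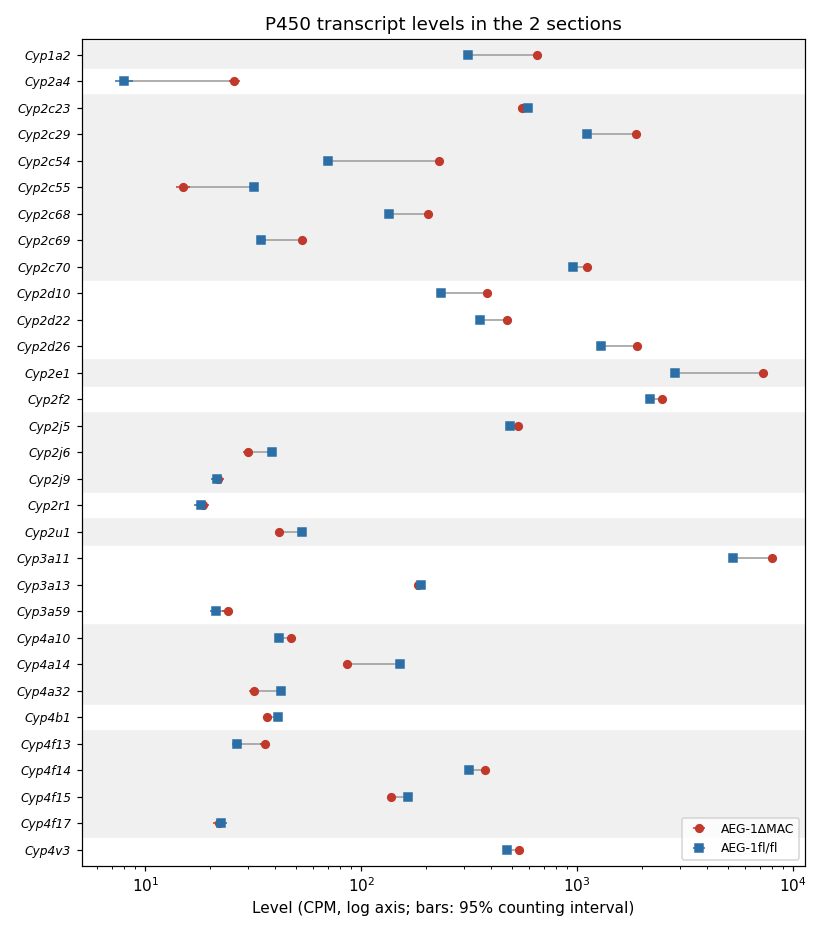
Level of 31 CYP genes in CPM on a log axis, with 1 section per genotype, red circles for AEG-1ΔMAC and blue squares for AEG-1fl/fl. Bars are 95% Poisson intervals and shading groups genes by subfamily. Cyp3a11 and Cyp2e1 have the most UMIs, and Cyp2a4, Cyp2c54, Cyp2e1 and Cyp1a2 show the widest gaps with AEG-1ΔMAC higher.

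To place spots along the lobule without the use of any CYP gene, each spot was given an index from 5 zone 3 genes (Oat, Slc1a2, Rhbg, Gulo and Rgn) minus 5 zone 1 genes (Pck1, Hal, Gls2, Hsd17b13 and Arg1). Spots of each library were ranked by it and divided into 3 equal parts, here called the zone 1, middle and zone 3 parts. Landmarks that did not enter the index separated in the direction of their names, except Apoa4 in AEG-1fl/fl (0.07): the median log2 ratio of zone 3 part over zone 1 part was 2.19 in AEG-1ΔMAC against 2.21 in AEG-1fl/fl for 6 zone 3 landmarks such as Axin2 and Lect2, and -1.31 and -0.92 for 7 zone 1 landmarks such as Sds and Uroc1. Because the ranking was done per section, a part may differ in lobule position between the sections. The median UMIs per spot in the 3 parts ranged from 20493 to 21242 in AEG-1ΔMAC, below which lay AEG-1fl/fl with 17604 to 19169. CYP genes took 3.48% of the UMIs in the zone 3 part and 2.09% in the zone 1 part of AEG-1ΔMAC, and 2.21% and 1.43% in AEG-1fl/fl. These shares, too, mainly follow the most abundant CYP genes.

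Pericentral genes made up a larger share of the CYP genes than of all genes in both sections. In AEG-1ΔMAC, 9 of 31 were at least 2-fold higher in the zone 3 part than in the zone 1 part, against 0.982% of the 6924 genes compared, and in AEG-1fl/fl also 9 of 31, against 0.939%. The same 9 genes were counted in each: Cyp1a2, Cyp2a4, Cyp2c29, Cyp2c54, Cyp2c55, Cyp2c69, Cyp2e1, Cyp4a10 and Cyp4a14. At least 2-fold lower in the zone 3 part was 1 of 31 in each section, Cyp2f2, where the share of all genes was 0.679% for AEG-1ΔMAC and 0.39% for AEG-1fl/fl. A zone log2 ratio within 0.5 of 0 was found for 17 of 31 genes in AEG-1ΔMAC and 19 of 31 in AEG-1fl/fl. Between these and the 2-fold genes lay Cyp2c68, at 0.99 and 0.84, and in 1 or the other section Cyp2c70, Cyp2u1, Cyp3a11 and Cyp4a32. The zone log2 ratios of the 31 genes correlated between the sections at Pearson r = 0.94 across genes, which share their libraries and spots.

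**Figure D2:**
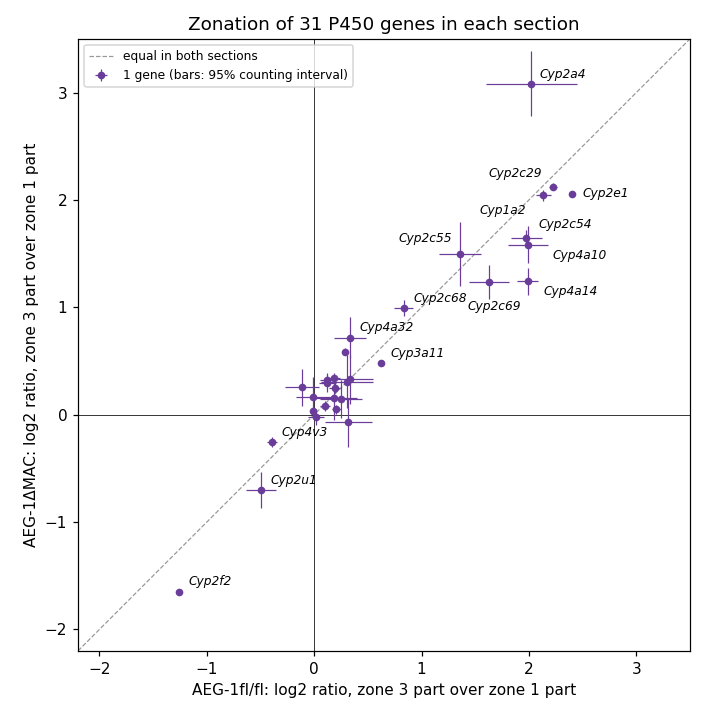
Log2 ratio of CPM, zone 3 part over zone 1 part, for 31 CYP genes in AEG-1fl/fl (horizontal axis) and AEG-1ΔMAC (vertical axis), with 95% counting intervals and a dashed line of equal values. Points lie near the line, with Cyp2a4 above it at 3.08 against 2.02, Cyp4a14 below it at 1.24 against 1.99, and Cyp2f2 at the periportal end in both sections.

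Family 1 holds the classical Ahr-induced enzymes. Cyp1a2, which oxidises caffeine and arylamines, had 648 CPM (640.7 to 655.5) in AEG-1ΔMAC against 313 CPM (308 to 318) in AEG-1fl/fl, which gave a log2 ratio of 1.05 (1.02 to 1.08). It was higher in AEG-1ΔMAC in each part of the lobule, with log2 ratios of 1.05, 1.17 and 0.96 from the zone 1 part to the zone 3 part. Within each section it was pericentral to a similar degree, with zone log2 ratios of 2.04 (1.99 to 2.09) and 2.13 (2.07 to 2.20). Its neighbour Cyp1a1 had 139 UMIs in AEG-1ΔMAC against 22 in AEG-1fl/fl, or 3.06 and 0.437 CPM, with a log2 ratio of 2.81 (2.15 to 3.53). Cyp1b1 had 70 UMIs against 36, for a log2 ratio of 1.11 (0.51 to 1.73). All 3 Ahr-induced genes were thus higher in AEG-1ΔMAC, though only Cyp1a2 reached the minimum level. Unlike Cyp1a2, Cyp1a1 was higher in the zone 1 part (4.49 CPM) than in the zone 3 part (1.86 CPM) of AEG-1ΔMAC, while in AEG-1fl/fl its zone ratio could not be told from 0, at 0.93 (-0.63 to 2.65).

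Cyp2e1, the ethanol- and acetaminophen-oxidising enzyme of pericentral hepatocytes, had 330157 UMIs in AEG-1ΔMAC against 142959 in AEG-1fl/fl. Its levels were 7264 CPM (7239 to 7288) and 2841 CPM (2826 to 2856), a log2 ratio of 1.35 (1.35 to 1.36). The spots of the 2 sections overlapped: the 10th, 50th and 90th percentiles of Cyp2e1 over spots were 2090, 6610 and 12858 CPM in AEG-1ΔMAC, and 602, 2079 and 6421 CPM in AEG-1fl/fl, so that the AEG-1ΔMAC median lay above the AEG-1fl/fl 90th percentile. Its level was higher in each successive part when the spots were divided into 10 toward zone 3, from 1516 to 14822 CPM in AEG-1ΔMAC, while AEG-1fl/fl went from 588 to 7793 CPM. The genotype log2 ratio was 1.51 (1.49 to 1.54) in the zone 1 part, 1.62 (1.60 to 1.63) in the middle part and 1.16 (1.15 to 1.18) in the zone 3 part, and so was smallest next to the central vein. The zone log2 ratio was smaller in AEG-1ΔMAC, 2.05 (2.04 to 2.07), than in AEG-1fl/fl, 2.40 (2.38 to 2.43). Across spots Cyp2e1 varied together with Cyp2c29 (Pearson r = 0.92 in AEG-1ΔMAC against 0.91 in AEG-1fl/fl) and Cyp1a2 (0.82 and 0.79), and opposite to Cyp2f2 (-0.76 and -0.76), over 2140 and 2540 spots that share their section and the scaling of each spot.

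Cyp2a4, a steroid hydroxylase known to be higher in female liver, was the most steeply zoned CYP gene of AEG-1ΔMAC. It had 1173 UMIs in AEG-1ΔMAC against 402 in AEG-1fl/fl, or 25.8 CPM (24.4 to 27.3) and 7.99 CPM (7.23 to 8.81), with a log2 ratio of 1.69 (1.53 to 1.86). The difference was larger near the central vein, with a log2 ratio of 0.90 (0.42 to 1.38) in the zone 1 part and 1.96 (1.75 to 2.17) in the zone 3 part. Between the highest and the lowest of the 10 parts its level differed 31.6-fold in AEG-1ΔMAC (from 3.17 CPM) and 9.38-fold in AEG-1fl/fl (from 2.62 to 24.6 CPM). The zone log2 ratios were 3.08 (2.78 to 3.39) and 2.02 (1.60 to 2.45), and the intervals do not overlap. Among the other genes known to be higher in females, Cyp2c69 had a log2 ratio of 0.63 and Cyp3a44 of 0.38 (0.10 to 0.65, 246 and 210 UMIs), and Cyp2b13 and Cyp3a16 had no UMI. Cyp2u1, counted as higher in males, had -0.34, while Cyp4a12b and Cyp7b1 had 0.31 and 0.56. Y-linked genes were measured at like levels in both sections, with Eif2s3y at 51.0 and 49.5 CPM and Ddx3y at 36.7 and 32.3 CPM. Kdm5d (12.9 and 14.8 CPM) and Uty (15.1 and 14.0 CPM) were also measured in both sections, so both mice were male. What set the levels of the sex-biased genes was not tested.

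The 7 Cyp2c genes with UMIs, of 8 listed, ranged more widely than those of any other subfamily, from a log2 ratio of 1.71 to -1.08. The genes at both extremes, Cyp2c54 and Cyp2c55, lie in the cluster on chromosome 19. The Cyp2c genes together had 4032 CPM in AEG-1ΔMAC against 2932 CPM in AEG-1fl/fl, which gave a log2 ratio of 0.46 (0.45 to 0.47). Cyp2c29, which forms epoxides of arachidonic acid and is induced through CAR, supplied 46.3% and 38.0% of these UMIs. Its levels were 1867 CPM (1855 to 1880) and 1115 CPM (1106 to 1124), a log2 ratio of 0.74 (0.73 to 0.76), with values of 0.73, 0.92 and 0.63 from the zone 1 part to the zone 3 part. It was pericentral in both sections, at 2.12 and 2.22. Cyp2c54, also an epoxygenase, had the largest ratio of the 31 genes: 229 CPM (224 to 233) against 69.9 CPM (67.7 to 72.3), or 1.71 (1.65 to 1.76). It was above 2-fold in each part, at 1.91, 1.80 and 1.57, and pericentral at 1.64 and 1.97.

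Cyp2c55, a further CAR- and PXR-induced gene, ran the other way, with 15.0 CPM (13.9 to 16.2) in AEG-1ΔMAC against 31.7 CPM (30.2 to 33.3) in AEG-1fl/fl. Its log2 ratio was -1.08 (-1.21 to -0.95), with -1.14, -1.19 and -1.01 in the 3 parts. It was pericentral at 1.49 (1.198 to 1.80) and 1.36 (1.17 to 1.55), within the range of the other genes of its cluster, from 0.59 and 0.29 for Cyp2c70 to 2.12 and 2.22 for Cyp2c29. Cyp2c68 and Cyp2c69, which share 98.1% and 97.9% of their coding bases with Cyp2c40, had similar log2 ratios of 0.59 (0.55 to 0.64) and 0.63 (0.54 to 0.72). Cyp2c70, the enzyme that forms muricholic acids from bile acids, had 1107 and 955 CPM and a log2 ratio of 0.21 (0.20 to 0.23). Along the lobule its log2 ratio was 0.03 (-0.01 to 0.06), 0.24 and 0.32. Cyp2c23, the epoxygenase formerly called Cyp2c44, lies apart from the cluster and had 556 and 591 CPM, for a log2 ratio of -0.09 (-0.11 to -0.06), with little zonation (0.05 and 0.21).

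Cyp2d enzymes, the relatives of human CYP2D6, had the narrowest range of log2 ratios among subfamilies with more than 1 gene compared. All 3 measured genes were higher in AEG-1ΔMAC under every scaling tried, with log2 ratios of 0.69 (0.66 to 0.73) for Cyp2d10, 0.55 (0.54 to 0.57) for Cyp2d26 and 0.42 (0.39 to 0.45) for Cyp2d22. Cyp2d26, with the most UMIs of the 3, had 1898 CPM in AEG-1ΔMAC against 1295 CPM in AEG-1fl/fl. It was nearly flat along the lobule, with zone log2 ratios of 0.04 and -0.01, and its genotype ratio was even, at 0.51, 0.58 and 0.56 in the 3 parts. The interval of its zone ratio in AEG-1fl/fl (-0.03 to 0.02) included 0.

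Cyp2f2, which activates naphthalene and marks periportal hepatocytes, was the only gene of the 31 at least 2-fold higher in the zone 1 part. It had 2477 CPM (2463 to 2492) in AEG-1ΔMAC against 2178 CPM (2165 to 2191) in AEG-1fl/fl, which gave a log2 ratio of 0.19 (0.17 to 0.20), close to the median of all genes. The values along the lobule lay on opposite sides of 0: 0.34 (0.32 to 0.36) in the zone 1 part, with 3775 and 2985 CPM, and -0.05 (-0.08 to -0.02) in the zone 3 part, with 1205 and 1248 CPM. The zone log2 ratio was -1.65 (-1.67 to -1.62) in AEG-1ΔMAC against -1.26 (-1.28 to -1.23) in AEG-1fl/fl. Non-CYP zone 1 landmarks were also steeper in AEG-1ΔMAC, as given above.

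**Figure D3:**
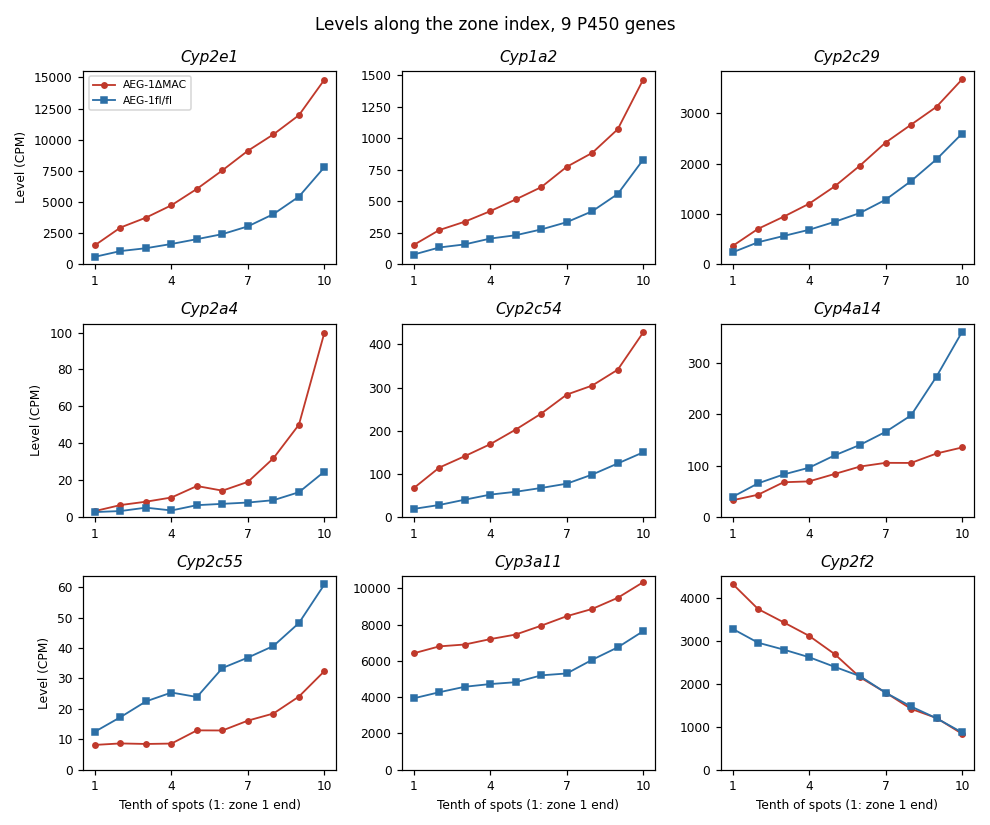
Levels (CPM, axes from 0) of 9 CYP genes in 10 equal parts of the spots from the zone 1 end (1) to the zone 3 end (10), red circles for AEG-1ΔMAC and blue squares for AEG-1fl/fl. Cyp2e1, Cyp1a2, Cyp2c29, Cyp2c54 and Cyp3a11 lie higher in AEG-1ΔMAC in every part, the Cyp2a4 curves separate mainly at the zone 3 end, Cyp4a14 and Cyp2c55 lie lower in every part, and the Cyp2f2 curves meet toward zone 3.

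The remaining family 2 genes had log2 ratios between -0.36 and 0.11. Cyp2j5, an epoxygenase, supplied 91.1% of the Cyp2j UMIs in AEG-1ΔMAC against 89.1% in AEG-1fl/fl, and had 529 and 490 CPM, for a log2 ratio of 0.11 (0.08 to 0.14) that turned to between -0.01 and -0.03 under the 3 other scalings. Cyp2j6 was lower, at 30.0 and 38.5 CPM, or -0.36 (-0.46 to -0.26), and Cyp2j9 was at 0.02 (-0.11 to 0.14). Cyp2r1, the vitamin D 25-hydroxylase, was at 18.4 and 18.0 CPM, or 0.03 (-0.11 to 0.17), which could not be told from 0 at this depth. Cyp2u1, which hydroxylates long-chain fatty acids, had 41.8 CPM (39.9 to 43.7) and 53.0 CPM (51.0 to 55.0), or -0.34 (-0.43 to -0.26). It was the second most periportal gene, with zone log2 ratios of -0.70 (-0.87 to -0.53) and -0.50 (-0.63 to -0.36).

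In family 3, Cyp3a11, the main drug-oxidising Cyp3a enzyme of mouse liver and a PXR target, had the most UMIs of all CYP genes. Its levels were 7976 CPM (7950 to 8002) in AEG-1ΔMAC against 5288 CPM (5268 to 5308) in AEG-1fl/fl, which gave a log2 ratio of 0.59 (0.59 to 0.60), with 0.65, 0.63 and 0.51 in the 3 parts. The 10th percentile of spots in AEG-1ΔMAC, 5812 CPM, lay above the AEG-1fl/fl median of 5044 CPM. Its pericentral bias was modest, at 0.48 (0.47 to 0.50) and 0.62 (0.61 to 0.63). Cyp3a11 made up 97.4% and 96.1% of the Cyp3a UMIs, and without it the Cyp3a sum had a log2 ratio of -0.01. Cyp3a13 was at 183 and 189 CPM, or -0.05 (-0.09 to -0.00), and was flat along the lobule (-0.02 and 0.02). Cyp3a59 was at 24.1 and 21.2 CPM, or 0.19 (0.07 to 0.31).

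Among the Cyp4a omega-hydroxylases, which Ppara induces, the direction was mostly the reverse. Cyp4a14 had 86.3 CPM (83.6 to 89.0) in AEG-1ΔMAC against 151 CPM (147 to 154) in AEG-1fl/fl, which gave a log2 ratio of -0.80 (-0.86 to -0.75). It was lower by more near the central vein, with -0.38 (-0.52 to -0.25), -0.54 and -1.13 (-1.21 to -1.05) along the lobule. In the last of the 10 parts, at the zone 3 end, it had 135 CPM in AEG-1ΔMAC against 360 CPM in AEG-1fl/fl. Its zone log2 ratio was thus 1.24 (1.12 to 1.37) in AEG-1ΔMAC against 1.99 (1.89 to 2.09) in AEG-1fl/fl, the widest gap of this sign among the 31 genes. Cyp4a32 had 31.7 and 42.7 CPM, or -0.43 (-0.53 to -0.33). Cyp4a10, 97.2% identical to it in coding sequence, had 47.1 and 41.5 CPM, or 0.18 (0.09 to 0.27), near the median of all genes, and was more pericentral (1.58 and 1.99) than Cyp4a32 (0.72 and 0.33). The Cyp4a sum had a log2 ratio of -0.51 (-0.55 to -0.47), and without Cyp4a14 of -0.10.

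The other family 4 genes lay on both sides of 0. Cyp4f14, which inactivates leukotriene B4, had 373 and 315 CPM, for a log2 ratio of 0.24 (0.21 to 0.27), and Cyp4f13 had 35.7 and 26.7 CPM, or 0.42 (0.31 to 0.53). Cyp4f15 was lower, at 137 and 164 CPM, or -0.26 (-0.31 to -0.21), and Cyp4f17 was at -0.04 (-0.16 to 0.08). The Cyp4f sum, 569 and 532 CPM, was at 0.10 (0.07 to 0.12) and turned to between -0.02 and -0.04 under the other scalings. Cyp4v3, a fatty acid omega-hydroxylase, had 537 and 474 CPM, or 0.18 (0.15 to 0.20), and was mildly periportal in both sections (-0.25 and -0.39). Cyp4b1 had 36.7 and 41.3 CPM, or -0.17 (-0.27 to -0.08), and its zone log2 ratio was 0.25 (0.08 to 0.43) in AEG-1ΔMAC against -0.11 (-0.27 to 0.05) in AEG-1fl/fl.

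**Figure D4:**
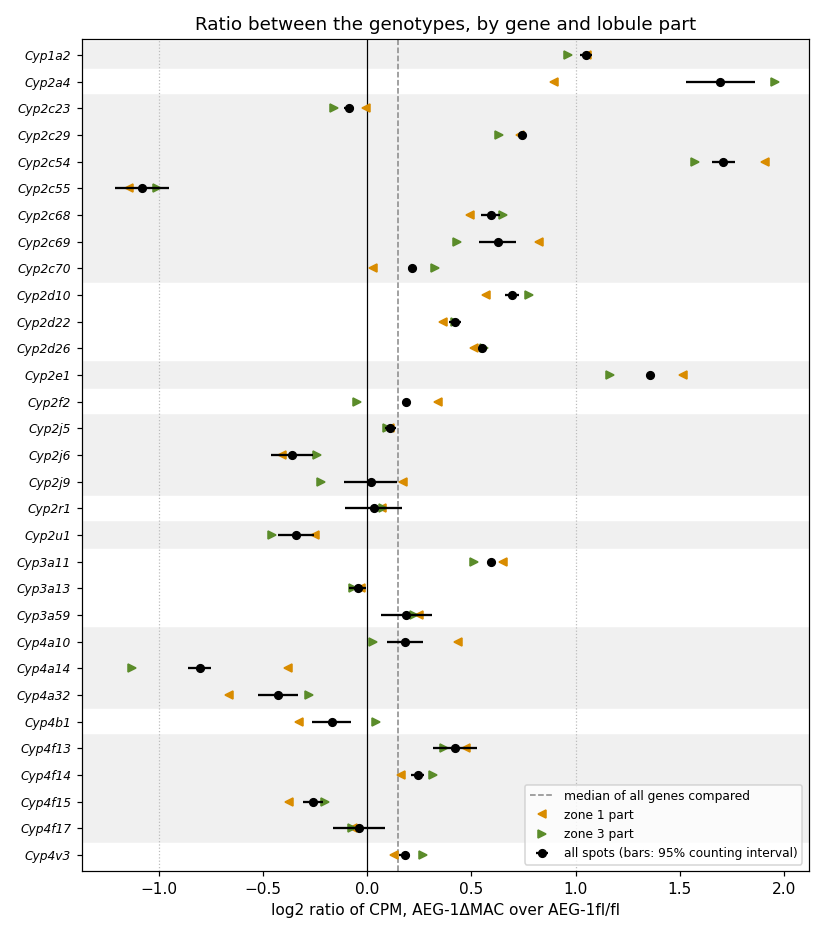
Log2 genotype ratio (AEG-1ΔMAC divided by AEG-1fl/fl, from CPM) for 31 CYP genes over all spots (black circles with 95% counting intervals), in the zone 1 part (orange) and in the zone 3 part (green). Dotted lines mark 2-fold and the dashed line the median of all genes, 0.15; Cyp2c54, Cyp2a4, Cyp2e1 and Cyp1a2 lie right of the upper 2-fold line and Cyp2c55 left of the lower one.

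Over the 3 parts of the lobule, 26 of the 31 genes kept their side of 0. The exceptions, Cyp2f2, Cyp2j9, Cyp2r1, Cyp4b1 and Cyp4f17, had log2 ratios between -0.17 and 0.19 over all spots. Set against the rest of the transcriptome, the CYP genes that were pericentral in both sections had a median log2 genotype ratio of 0.74 (9 genes, from -1.08 to 1.71, 7 of them above 0), and the 45 other genes with that zonation had a median of 0.57, with 5th and 95th percentiles of -0.31 and 1.28. The 21 CYP genes under 2-fold zonation in both sections had a median of 0.11, and the 6775 other such genes 0.15. Across genes, the genotype ratio and the mean zone ratio correlated at Pearson r = 0.48 over the 31 CYP genes and 0.12 over 6893 other genes, which share the same 2 libraries. The 5 zone 3 genes of the index, none of them a CYP gene, were all higher in AEG-1ΔMAC (0.31 to 1.13), as were 5 of the 6 zone 3 landmarks. Other zone 3 genes were thus mostly higher too, and the part of this in the CYP values was not tested.

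**Figure D5:**
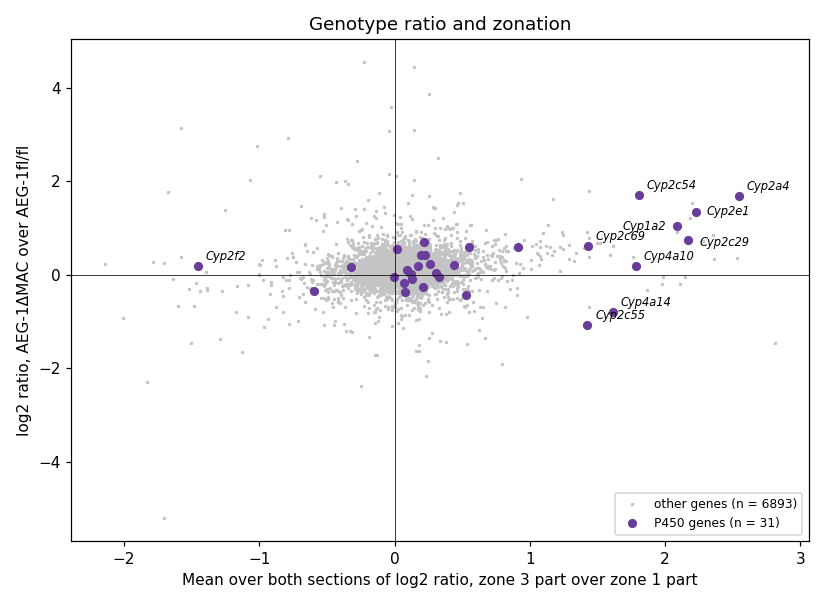
Log2 genotype ratio (vertical axis) against the mean of the zone log2 ratios of both sections (horizontal axis) for 31 CYP genes (purple) and 6893 other genes (grey). Most pericentral CYP genes, at the right, lie above 0, and Cyp4a14 and Cyp2c55 lie below.

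By known regulation, 4 of 6 genes chosen as CAR- or PXR-induced were measured, while Cyp2b10 and Cyp3a25 were not in the gene list. Of those measured, Cyp2c29 and Cyp3a11 were higher, Cyp3a13 was near 0 at -0.05 and Cyp2c55 was lower, with a median log2 ratio of 0.27. The set is therefore incomplete. The 6 measured arachidonic acid epoxygenases had a median of 0.06 and ranged from -0.36 (Cyp2j6) to 1.71 (Cyp2c54). The 6 omega-hydroxylases of fatty acids had a median of 0.18 and ranged from -0.80 (Cyp4a14) to 0.42 (Cyp4f13), and their summed level was alike in both sections, at 1216 and 1173 CPM. The 3 measured Ppara-induced Cyp4a genes, of 4 chosen, had a median of -0.43, against 0.15 for all genes.

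The genes listed as redox partners of CYP enzymes lay within 2-fold: Por, Cyb5a, Cyb5b, Cyb5r3, Pgrmc1, Pgrmc2, Fdx1 and Fdxr. Of 8 redox partners, 5 had a log2 ratio above 0 and 3 below, and 0 passed 2-fold, with a median of 0.09. The reductase Por had 176 and 162 CPM, or 0.12 (0.07 to 0.16), below the median of all genes, and was itself pericentral (1.02 and 0.99). Cytochrome b5 (Cyb5a) had 1888 and 1436 CPM, or 0.39 (0.38 to 0.41), and its reductase Cyb5r3 was lower, at -0.33 (-0.35 to -0.30).

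Among 21 transcription factors known to act on CYP genes, 19 had a log2 ratio above 0 and 14 lay above the median of all genes. Of the 21, 6 were at least 2-fold higher, against 1.27% of all genes, and the median of the 21 was 0.41. The list was drawn up with earlier results of these data known, so these counts describe the listed genes only. Onecut1 (HNF6) had 125 CPM in AEG-1ΔMAC against 10.3 CPM in AEG-1fl/fl, which gave a log2 ratio of 3.60 (3.47 to 3.73). The clock-controlled factors Dbp and Tef were at 2.76 (2.49 to 3.04) and 1.33, and Foxa1, Cebpb and Foxa2 at 1.76, 1.22 and 1.19. The xenobiotic receptor Nr1i3 (CAR) had 176 and 109 CPM, or 0.69 (0.64 to 0.74), and Ahr had 28.2 and 21.1 CPM, or 0.41 (0.30 to 0.53). Both receptors were pericentral in each section, Nr1i3 at 1.37 and 1.68 and Ahr at 1.55 and 1.64. Nr1i2 (PXR) and Ppara were at 0.08 and -0.04. The part of these factors in the CYP values was not tested.

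The 22 CYP genes outside the pattern included 9 at or above the minimum level, of which 5 had a log2 ratio above 0 and 4 below, and 0 passed 2-fold. Cyp7a1, the rate-limiting enzyme of bile acid synthesis, was the most displaced at 0.91 (0.84 to 0.99), with 91.6 and 48.6 CPM, and was pericentral at 1.91 and 2.28. Markers of other cells were close in their sums: 5 Kupffer cell markers summed to 561 and 541 CPM, 5 endothelial markers to 391 and 397 CPM, 5 stellate cell markers to 407 and 408 CPM, and 5 cholangiocyte markers to 87.3 and 88.2 CPM. Single markers differed more, with log2 ratios of -1.38 (-1.51 to -1.24) for Marco (Kupffer cell), -0.91 for Sox9 (cholangiocyte) and -0.48 for Colec11 (stellate cell). The red cell sum was 905 against 1045 CPM, with Hbb-bt at -1.20.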

How the data were processed

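Per the labels, the libraries were made with the Visium kit for fixed tissue and its mouse transcriptome probes, and Space Ranger 2.0.1, Seurat 4.3.0 and the mm10 build are named in the submitters' processing notes. The authors deposited raw UMI counts per gene and spot, with no normalisation. Probes differ in efficiency from gene to gene, so ratios were taken within a gene, and subfamily sums and the shares of genes in them describe UMIs and not amounts of RNA.

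Spots with more than 50000 UMIs, fewer than 100 genes or more than 7000 genes were left out, by the limits the study states. This left 2140 of 2149 AEG-1ΔMAC spots, and 2540 of the 2543 from AEG-1fl/fl. The study reports 2149 and 2543 as its spot numbers after quality control, so the spot set here is slightly smaller. Sums per library were scaled to CPM in Python 3.11.15 with scipy 1.17.1. At 10 CPM a gene had 455 AEG-1ΔMAC or 503 AEG-1fl/fl UMIs. Spots within a section do not replicate a genotype, so no test and no p-value is given. Steps were tested on simulated data. The zone index was the mean scaled log-normalised value of the zone 3 genes minus that of the zone 1 genes. Of the 6 zone 3 genes chosen, Glul was not in the gene list and so could not be used. Cyp2a5, Cyp2b10 and Cyp2d9 fit the symbol pattern but were not in the gene list either. Alternatives were other scalings, spot sets, zone indices, minimum levels and ratios.

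Genes were named by a rule of size: all at or above 10 CPM, with the 8 largest positive and negative ratios, the gene with the most UMIs of each subfamily, and the 5 highest and lowest zone ratios in full. The CYP genes and lists were chosen with earlier results of these data known. Positions and coding identities came from GENCODE M21 and promoters from RefSeq, both of GRCm38, which is the assembly called mm10.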

Additional observations from a re-analysis of the deposited data

Results flagged for a closer look

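The genotype ratio of Cyp2f2 lay on opposite sides of 0 at the ends of the lobule, at 0.34 in the zone 1 part and -0.051 in the zone 3 part (log2, AEG-1ΔMAC over AEG-1fl/fl), each with a counting interval that excluded 0. The difference between the parts was not tested, since each genotype had 1 section.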

How the results depend on the processing

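No paired analysis was possible because each genotype had 1 library. Among scalings, TMM factors (edgeR 4.0.16), median-of-ratios factors and a total without the 50 most abundant genes lowered every log2 ratio by 0.12, 0.13 and 0.14, which took the median of the CYP genes from 0.19 to 0.062, 0.056 and 0.044, the number at least 2-fold higher from 4 to 3, and the subfamily sums above 0 from 11 to 8 of 14. The median of all genes moved along, from 0.15 to 0.02, 0.02 and 0.00. A minimum of 50 CPM kept 18 of the 31 genes, with a median of 0.33, and took out Cyp2c55 and Cyp2a4, which left 3 genes at least 2-fold higher and 0 lower, against 1.6% and 0.55% of the 2181 genes at that level. At a ratio of 1.5, 9 genes were higher and 2 lower, against 4.3% and 1.79% of all genes. For zonation, the outer 10% of spots at each end gave medians of 0.42 (AEG-1ΔMAC) and 0.40 (AEG-1fl/fl), with 47 of 62 zone ratios outside their counting intervals, and 2 genes at least 2-fold higher in zone 1 in AEG-1ΔMAC (1.43% of all genes). The same count of 2 came with a minimum of 1 CPM (2.2%) and with a ratio of 1.5 (1.85%). The index from the check landmarks gave a median of 0.20 in AEG-1fl/fl. None of the called ratios changed sign under any of the settings run. With all deposited spots 31 of 31 genotype ratios stayed within their counting intervals, and with spots matched on UMIs (1783 per library) 29 of 31. No setting stands in for replicate sections, and genes under 10 CPM rest on few UMIs.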
